A study of Homo sapiens with 6 samples.

Results

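The proteasome genes of the A673 Ewing sarcoma cell line were followed on 6 Agilent 1-colour arrays. A gene was taken as a member when a probe carried a RefSeq accession that maps to PSMA, PSMB, PSMC, PSMD, PSME, PSMF or PSMG followed by a number, and the immunoproteasome subunits PSMB8 and PSMB9 were left out. This rule, which used no measured value, found 46 genes with 63 probes among 20503 named genes and 50599 gene probes on the array. The 3 control arrays hold RNA of A673/TR/empty cells, which carry the tetracycline repressor and an empty lentiviral vector. The 3 other arrays hold RNA of A673/TR/LOX-PP cells, which carry the same repressor and a cDNA for the propeptide of lysyl oxidase under doxycycline control. The labels do not settle whether the controls received doxycycline. Their treatment field gives 1 µM for 72 h for all 6 samples, their source field names doxycycline only for the A673/TR/LOX-PP samples and calls the others control, and the methods can be read either way. Both lines came from lentiviral infection and zeocin selection. According to the methods, clones were picked for high expression under doxycycline, while some assays of the study also used a polyclonal population. Which of these was hybridised is not given in the sources used here, so the construct and the selected cells cannot be told apart. The arrays of a group were 3 separate experiments according to the methods. The comparison asks which genes differ in level when the propeptide is induced.

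The proteasome is the large protease that degrades ubiquitin-tagged proteins in the cytosol and the nucleus. Its 20S core is a barrel of outer alpha rings, which gate the entrance, and inner beta rings, which hold the proteolytic sites. The 19S regulatory particle binds and deubiquitinates the substrate, unfolds it with a ring of ATPases and feeds it into the barrel, while other activators open the gate without ubiquitin. Dedicated chaperones assemble the rings. Transcription of the subunit genes is known to rise together through NFE2L1 when proteasome activity falls.

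In these data no proteasome gene passed the test for a difference between the groups. Limma was run with Benjamini-Hochberg adjustment over all 32647 probes tested. By their brightest probe, 0 of 45 tested member genes had an adjusted p under 0.05, beside 1174 of 16601 named genes (7.07%). This share differed with signal. It was 0.663% among the 1660 brightest genes, which hold 29 of the members, and 1.87% among the next 1660, which hold 9. Without adjustment 3 members, PSMD13, PSMC3 and PSMG3, had a p under 0.05, beside 23.7% of all genes, and all 3 were lower on the LOX-PP arrays. The methods' t-test gave 0 members after adjustment, beside 2.28% of all genes, and 4 without it, beside 23.2%. Of the 61 tested member probes 1 passed, the dimmer of the PSME4 probes, beside 5.66% of all probes. Among 47 tested genes that act beside the proteasome, 2 passed by their brightest probe, beside 7.07% of all genes. These were the assembly factor POMP and the deubiquitinase USP14, both lower, and both calls were lost under several alternatives.

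Values are given on a log2 scale on which 0 is the 75th percentile of an array, and are called levels. A change is the mean level of the LOX-PP arrays minus that of the control arrays, less 0.13, the median difference of all probes tested, unless it is called a difference. Under each alternative the median of that alternative is subtracted instead. Intervals are those of the change, while every p-value tests the difference before this subtraction. Levels of different probes cannot be compared as amounts of RNA. Of the 46 members, 44 were well above background on all 6 arrays. PSMB11, the thymus-specific beta subunit, was above background on 2 control arrays and 1 LOX-PP array, and PSMA8, a testis-specific alpha subunit, was well above background on 0 of 6 arrays and was not tested.

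The arrays were not alike, which bears on every value below. The log2 signal at the 75th percentile was between 12.60 and 12.90 on the control arrays, and it was 11.48, 12.61 and 11.70 on LOX-PP replicates 1 to 3. LOX-PP replicate 1 was alone on slide 2 and in scan 2. No gene spot was saturated, and between 56.9% and 74.8% of the gene spots of an array were well above background. The 7 Ewing sarcoma markers (CD99, NR0B1, NKX2-2 and others) were well above background on all arrays, while the blood and endothelial markers stayed at or under -1.91. Of 3 epithelial markers, KRT18 was bright on all arrays, EPCAM was above background on all arrays at or under -2.84, and CDH1 was well above background on 0 of 6. Of 3 fibroblast markers, DCN was above background on all arrays, between -1.46 and 0.50, PDGFRA was so on 2 arrays, and LUM was dim and lower on the LOX-PP arrays (change -2.42, adjusted p = 0.0191, limma). LOX, whose single probe serves as a check of the labels, was at -0.09, 0.36 and 0.11 on the control arrays and at -0.12, -0.68 and -1.29 on the LOX-PP arrays (adjusted p = 0.217, limma). It was not higher where the propeptide was to be induced, and the files do not place the probe relative to the propeptide cDNA, so all directions rest on the labels.

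Promoter sequences are shown for 4 genes on which the results turn: PSME4, whose dimmer probe passed the test, PSMD13, the member with the lowest change, PSMB4, a member at the upper end, and POMP. Each is the 250 bases before the start of transcription in RefSeq (GRCh38.p14), written 5′ to 3′ on the strand of the gene. They lie at chr2:53970994-53971243 (minus strand), chr11:236726-236975 (plus strand), chr1:151399323-151399572 (plus strand) and chr13:28658880-28659129 (plus strand). Capitals mark matches to TGACNNNGC, a core of the antioxidant response element that NFE2L1 and NFE2L2 are known to bind with small MAF proteins, and to CCGGAAG, a core of the sites bound by ETS factors, the family of the FLI1 moiety of EWS/FLI1, the fusion oncoprotein of Ewing sarcoma, on either strand.
PSME4: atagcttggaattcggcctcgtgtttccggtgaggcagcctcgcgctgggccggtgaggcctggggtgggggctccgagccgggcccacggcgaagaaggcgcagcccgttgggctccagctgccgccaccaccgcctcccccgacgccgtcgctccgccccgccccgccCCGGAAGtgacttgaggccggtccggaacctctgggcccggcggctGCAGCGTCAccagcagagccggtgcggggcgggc
PSMD13: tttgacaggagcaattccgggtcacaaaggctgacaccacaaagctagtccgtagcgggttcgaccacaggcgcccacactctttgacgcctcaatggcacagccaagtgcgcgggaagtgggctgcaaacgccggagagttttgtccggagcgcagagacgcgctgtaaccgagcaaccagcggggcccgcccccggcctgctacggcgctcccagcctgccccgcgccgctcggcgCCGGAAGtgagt
PSMB4: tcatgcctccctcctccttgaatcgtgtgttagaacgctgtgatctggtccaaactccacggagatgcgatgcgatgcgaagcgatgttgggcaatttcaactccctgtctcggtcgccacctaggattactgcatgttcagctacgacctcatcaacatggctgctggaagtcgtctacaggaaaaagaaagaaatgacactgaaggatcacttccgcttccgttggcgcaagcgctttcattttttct
POMP: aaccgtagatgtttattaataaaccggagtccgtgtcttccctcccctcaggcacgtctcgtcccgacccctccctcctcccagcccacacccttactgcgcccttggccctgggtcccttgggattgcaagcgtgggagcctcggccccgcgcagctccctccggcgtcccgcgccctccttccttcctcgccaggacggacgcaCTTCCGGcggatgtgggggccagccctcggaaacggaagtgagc
The PSME4 sequence holds 1 match to each motif, PSMD13 and POMP hold 1 match to CCGGAAG each, and PSMB4 holds neither. RefSeq gave a promoter for 40 of the 46 members (not for PSMA7, PSMB1, PSMB6, PSMB7, PSMD4 and PSMG3). TGACNNNGC was found in 12 of these 40 (30.0%), beside 13.2% of the 27305 genes with a promoter of the same length. CCGGAAG was found in 11 of 40 (27.5%), beside 10.2% of all. PSME4, PSMD9 and PSMD12 held both. The median change was -0.13 in the 12 members with TGACNNNGC and -0.056 in the 27 tested members without it. It was -0.26 in the 10 tested members with CCGGAAG and 0.037 in the 29 without. These are descriptions of letters, and no binding was measured.

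Over the 45 tested members the median change was 0.037, with 23 members above and 22 below the median of all probes, while the median over all named genes was -0.093. The median of the members was -0.017 under quantile normalization and -0.043 with normexp. The changes ran from -1.10 for PSMD13 to 0.48 for PSMB1. The median standard error was 0.23, and the 95% interval of the change lay within 2-fold in both directions for 33 members and within 1.5-fold for 3. The groups did not overlap for 7 members, beside 33.6% of all genes. The LOX-PP arrays were all above the control arrays for PSMD11 and PSMD12 (15.4% of all genes were so), and all below them for PSMA1, PSMC3, PSMD13, PSME4 and PSMG3 (18.2% of all genes). The count was 12 under quantile normalization, beside 34.1% of all genes, and 11 with normexp, beside 33.8%. Without LOX-PP replicate 2 the groups did not overlap for 28 members, 20 above and 8 below. Of all 16601 genes 43.1% then did not overlap, 3541 above and 3614 below.

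**Figure D1:**
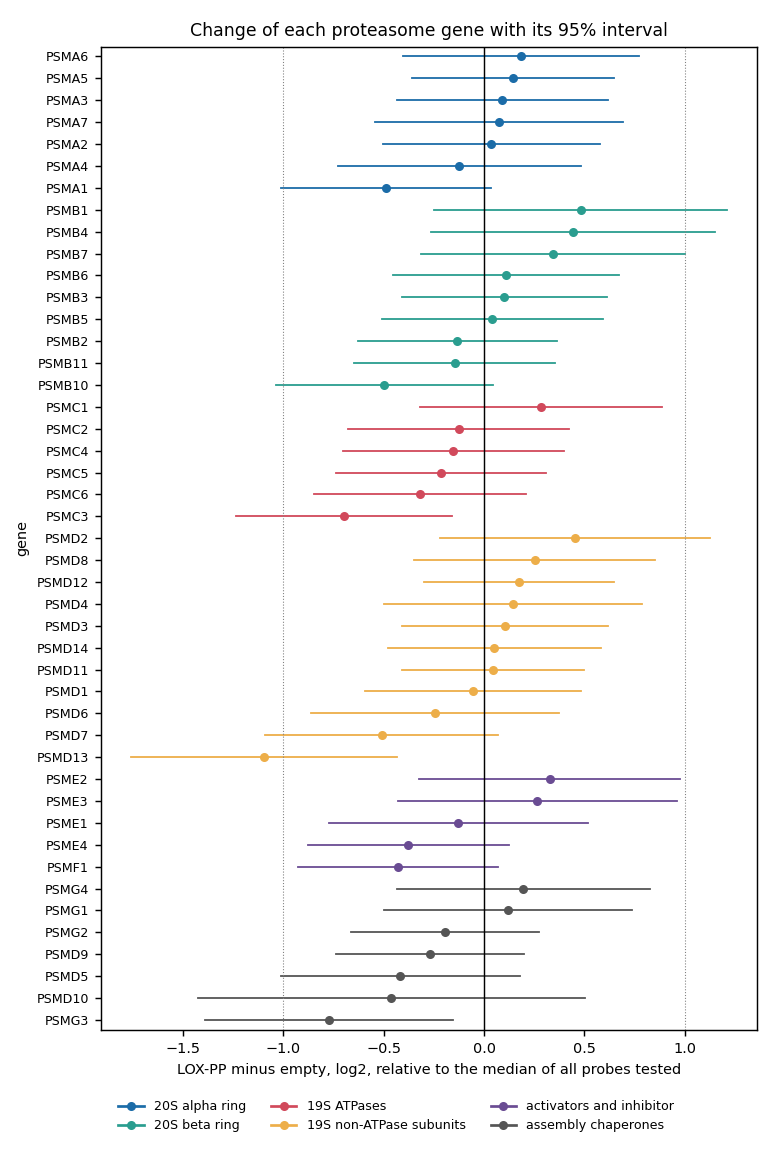
Change of each of the 45 tested proteasome genes (points, brightest probe, log2, LOX-PP minus empty, relative to the median of all probes tested) with its 95% interval from limma (lines), ordered by role and then by change. Dotted lines mark a 2-fold change. PSMD13 (-1.10), PSMG3 (-0.77) and PSMC3 (-0.70) are the 3 genes whose interval lies below 0, and no interval lies above it.

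The 3 LOX-PP arrays did not move together. Relative to the mean of the controls, and with no correction for the median of all probes, the median member stood at 0.16 on LOX-PP replicate 1, at -0.086 on replicate 2 and at 0.29 on replicate 3. The medians of all genes on these arrays were -0.12, 0.035 and 0.072. The control arrays were close to each other, with member medians of -0.092, 0.043 and 0.065. Replicate 3 was the highest of the LOX-PP arrays for 25 members, replicate 1 for 16 and replicate 2 for 4. The SD over the LOX-PP arrays was larger than that over the controls for 39 of 45 members, with medians of 0.29 and 0.13. The same was seen for 72.7% of all genes, with medians of 0.36 and 0.21.

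**Figure D2:**
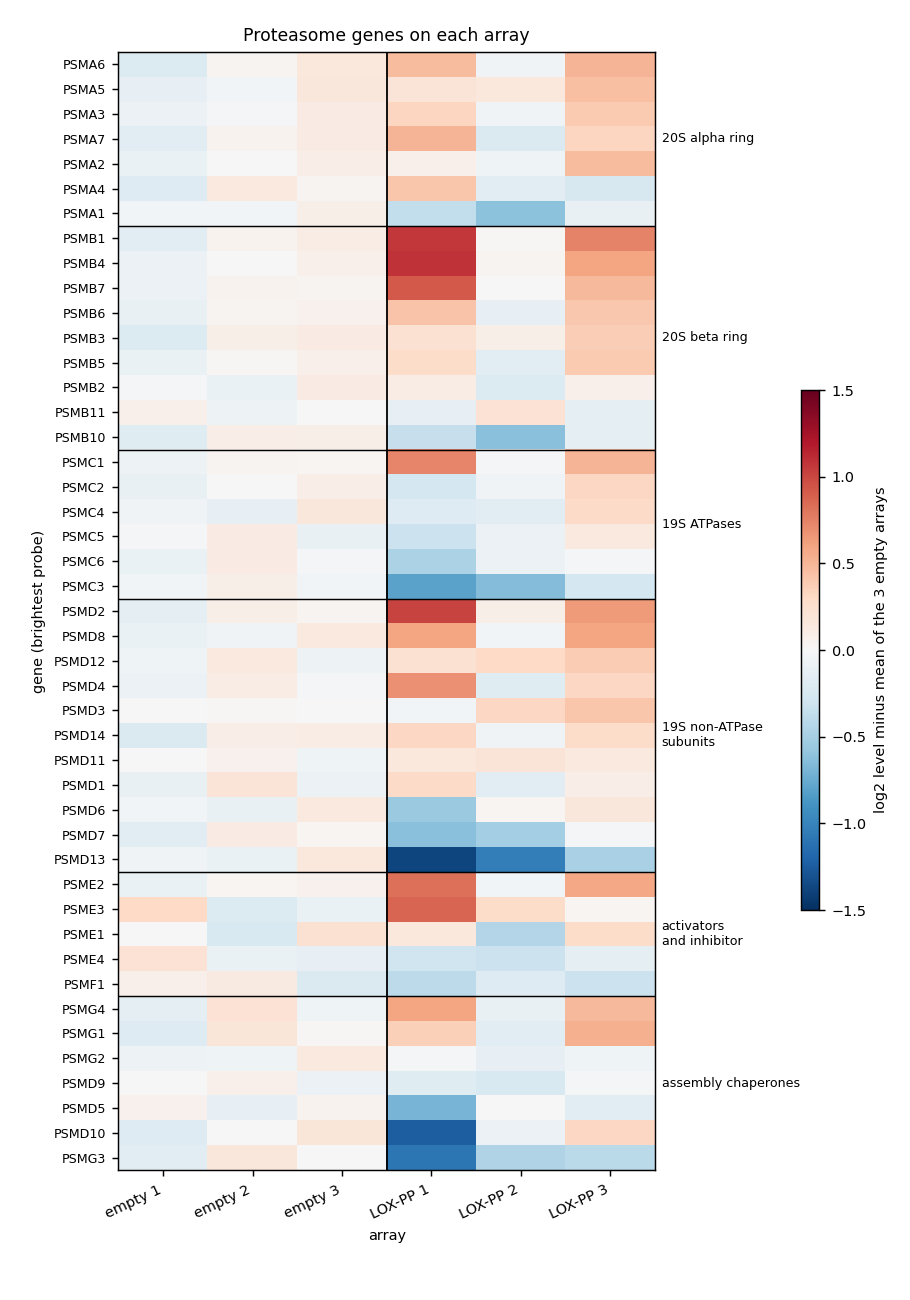
Level of each tested proteasome gene (rows, grouped by role) on each array (columns), as its log2 difference from the mean of the 3 empty arrays. Blue is lower and red is higher. LOX-PP 1 and LOX-PP 3 are red for many core subunits, LOX-PP 2 is pale, and PSMD13, PSMC3 and PSMA1 are blue on all 3 LOX-PP arrays.

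The alpha ring, which forms the gated ends of the core, had a median change of 0.074 over 7 tested genes, with 5 above the median of all probes and 0 called. This sign did not hold under quantile normalization (-0.044) or normexp background correction (-0.081), where 3 and 1 of the 7 were above. With no filter on dim probes the median change was -0.094, with 2 of 8 genes above. There the subtracted median of all probes was higher and PSMA8 was added, while the differences of the 7 genes were unchanged. PSMA5 was at 5.31, 5.39 and 5.60 on the control arrays and at 5.62, 5.60 and 5.89 on the LOX-PP arrays. Its change of 0.14 was the largest by t of the ring (adjusted p = 0.515, limma), and the groups overlapped by a small margin. PSMA1 was the exception in the ring, with levels of 5.59, 5.59 and 5.72 on the control arrays and at 5.27, 5.02 and 5.52 on the LOX-PP arrays. All LOX-PP values of PSMA1 lay below all control values, and the change of -0.49 (95% interval -1.01 to 0.034) did not pass the test (adjusted p = 0.395). PSMA2, PSMA3, PSMA4, PSMA6 and PSMA7 had changes between -0.12 and 0.18.

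The beta ring carries the active sites, and its median change was 0.10 over 9 genes, with 6 above the median of all probes and 0 called. Here too the sign turned, to -0.066 under quantile normalization, to -0.11 with normexp and to -0.024 without LOX-PP replicate 1. With no filter the median change was -0.075, again with a higher subtracted median and unchanged differences. The catalytic subunits were PSMB5 (chymotrypsin-like), PSMB6 (caspase-like) and PSMB7 (trypsin-like). PSMB5 was at 6.06, 6.18 and 6.24 on the control arrays and at 6.44, 5.996 and 6.55 on the LOX-PP arrays. PSMB6 was at 5.86, 6.01 and 6.03 on the controls and at 6.40, 5.84 and 6.37 on the LOX-PP arrays. PSMB7 was at 5.78, 5.91 and 5.90 and then at 6.79, 5.87 and 6.35. All 3 showed the same order, with replicates 1 and 3 of LOX-PP above every control and replicate 2 inside or just below the control range. Their changes were 0.041, 0.11 and 0.34, with adjusted p of 0.727, 0.617 and 0.378 (limma), and each was negative with normexp. The 95% interval reached from -0.51 to 0.59 for PSMB5, so that a change in either direction within this range remains possible.

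PSMB1, a structural subunit of the ring, had the highest change of all members. It was at 6.07, 6.28 and 6.34 on the control arrays and at 7.29, 6.24 and 6.97 on the LOX-PP arrays. Its change of 0.48 did not pass the test (adjusted p = 0.307), and it was -0.040 both under quantile normalization and with normexp. Its second probe had a change of -0.10. PSMB10, the inducible counterpart of PSMB7 in the immunoproteasome, went the other way, with 4.08, 4.36 and 4.35 on the controls and 3.92, 3.63 and 4.13 on the LOX-PP arrays. Only replicate 3 of the LOX-PP arrays reached the control range of PSMB10, and its change was -0.50 (adjusted p = 0.402). PSMB8 and PSMB9, the left-out partners of PSMB10 in the immunoproteasome, had changes of -0.86 (adjusted p = 0.266) and 0.71 (adjusted p = 0.381). PSMB8 was at -0.84, -0.85 and -0.30 on the controls and -1.69, -1.74 and -0.76 on the LOX-PP arrays. PSMB9 was at -1.60, -1.36 and -0.81 on the controls and -1.15, -0.79 and 0.67 on the LOX-PP arrays. The groups overlapped for both.

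The 6 ATPases of the 19S base, which unfold the substrate, had a median change of -0.18 with 1 gene above the median of all probes, and this median was 0.0048 under quantile normalization. PSMC3 had levels of 5.59, 5.72 and 5.60 on the control arrays and at 4.84, 4.99 and 5.38 on the LOX-PP arrays. The groups of PSMC3 did not overlap, and its change was -0.70 (95% interval -1.24 to -0.16, adjusted p = 0.211, limma). At the other end PSMC1 was at 5.74, 5.86 and 5.85 on the controls and at 6.55, 5.80 and 6.33 on the LOX-PP arrays. Its change of 0.28 (adjusted p = 0.406) was -0.014 under quantile normalization. PSMC2, PSMC4, PSMC5 and PSMC6 had changes from -0.32 to -0.13 with overlapping groups.

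Of the 11 non-ATPase subunits of the 19S particle, 7 were above the median of all probes, and the median change was 0.051. This median turned to -0.053 without LOX-PP replicate 1, with 5 of 11 above. With no filter it was -0.13, with 2 of 11 above, because the subtracted median of all probes was higher. The differences of these genes were unchanged there. PSMD13, a subunit of the lid, was at 4.22, 4.16 and 4.42 on the control arrays. It was at 2.89, 3.23 and 3.78 on the LOX-PP arrays, all below the controls. Its change of -1.10 (95% interval -1.76 to -0.43) was the lowest of all members and the adjusted p was 0.103 (limma), between 0.0617 and 0.320 over the alternatives, so it did not pass the threshold in any of them. PSMD2, the large scaffold subunit of the base, was at 5.98, 6.21 and 6.16 on the controls and at 7.13, 6.20 and 6.75 on the LOX-PP arrays. Its change was 0.45 (adjusted p = 0.292), and -0.017 under quantile normalization. The ubiquitin receptor PSMD4 was at 5.25, 5.44 and 5.31 on the controls and 6.02, 5.15 and 5.64 on the LOX-PP arrays, with a change of 0.14 that was -0.10 without LOX-PP replicate 1. The deubiquitinase of the lid, PSMD14, was at 5.58, 5.91 and 5.91 on the controls and 6.11, 5.75 and 6.08 on the LOX-PP arrays. PSMD14 had a change of 0.051, which was -0.17 under quantile normalization. The dimmer probe of PSMD14 had a change of -0.57 with overlapping groups. PSMD11 and PSMD12, lid subunits whose LOX-PP arrays were all above the controls, had changes of only 0.043 and 0.17.

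Among the activators and the inhibitor the median change was -0.13 over 5 genes. It was 0.063 under quantile normalization, 0.0034 with normexp and 0.17 without LOX-PP replicate 2. PSME2, which forms the interferon-inducible 11S cap with PSME1, was at 5.62, 5.75 and 5.79 on the controls and at 6.55, 5.68 and 6.30 on the LOX-PP arrays. It had a change of 0.33 (adjusted p = 0.393), while that of PSME1 was -0.13. PSMF1, an inhibitor of the core, was at 2.61, 2.66 and 2.32 on the controls and 2.14, 2.34 and 2.22 on the LOX-PP arrays, with a change of -0.43 (adjusted p = 0.458). Its 4 probes had changes from -0.43 to -0.096. PSME3, the nuclear activator, had a change of 0.27.

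PSME4 encodes PA200, a single-chain activator that caps the core. Its brighter probe was at 2.71, 2.39 and 2.37 on the control arrays and at 2.19, 2.17 and 2.35 on the LOX-PP arrays. The change was -0.38 (adjusted p = 0.543, limma). The dimmer probe was at 1.44, 1.89 and 1.34 on the control arrays and at 0.30, 0.17 and 0.23 on the LOX-PP arrays, well above background on all 6. On this probe the groups were clearly apart, and the change of -1.45 (95% interval -1.99 to -0.90) passed the test (adjusted p = 0.0237). The call was lost with no filter on dim probes (0.100), with a replicate block (0.0786), in the methods' t-test (0.0605), and without control replicate 1 (0.124), control replicate 2 (0.113), LOX-PP replicate 2 (0.0717) or LOX-PP replicate 3 (0.0649), all as adjusted p. Both probes carry the same transcript accession and differed by 1.07 in change. With the mean of both probes PSME4 fell by 0.83 (adjusted p = 0.0361).

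The assembly chaperones had a median change of -0.27 over 7 genes, with 2 above the median of all probes. It was -0.10 under quantile normalization, -0.099 with normexp and -0.073 with the mean of probes. PSMG3, part of a chaperone pair for the alpha ring, was at 3.57, 3.89 and 3.72 on the controls and at 2.65, 3.28 and 3.32 on the LOX-PP arrays. The groups did not overlap, and the change was -0.77 (95% interval -1.39 to -0.15, adjusted p = 0.218). PSMG4, its partner, was at 3.43, 3.78 and 3.50 on the controls and 4.17, 3.46 and 4.06 on the LOX-PP arrays. PSMG4 had a change of 0.20 (adjusted p = 0.536), in the opposite direction to PSMG3. The brighter probe of PSMD9, a chaperone of the 19S base, had a change of -0.27 (adjusted p = 0.727). The dimmer one was at -1.54, -1.90 and -2.31 on the controls and at -2.98, -3.64 and -4.30 on the LOX-PP arrays, where 1 array was above background, and its change of -1.85 missed the threshold (adjusted p = 0.0513). With the mean of both probes PSMD9 fell by 0.98 (adjusted p = 0.0458).

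Probes of a gene often disagreed. For 14 members more than 1 probe was tested, and the brightest probe had the more positive change in 9 of them. The signs of the changes differed in 6, PSMB1, PSMC1, PSMC2, PSMD5, PSMD10 and PSMD14. The gap between the brightest and the next probe was over 1 for PSME4 and PSMD9. With the mean of all tested probes of a gene in place of the brightest, 2 members passed the threshold, PSME4 and PSMD9, beside 10.6% of all genes.

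**Figure D3:**
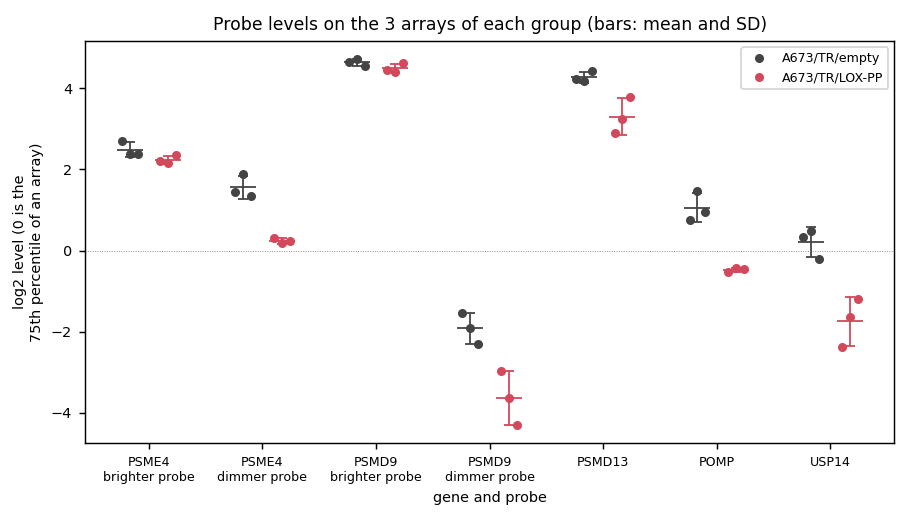
Log2 level (0 is the 75th percentile of an array) of the 2 probes of PSME4 and of PSMD9 and of the brightest probes of PSMD13, POMP and USP14 on the 3 A673/TR/empty and 3 A673/TR/LOX-PP arrays. Points are arrays and bars are the mean and SD. The dimmer PSME4 probe, POMP and USP14, which passed the test, have groups that lie apart, while the brighter probes of PSME4 and PSMD9 lie close together.

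Among the members, higher changes went with a stronger signal on this scaling. All named genes did not show this order over the whole range of signal. In 10 groups of equal size ordered by mean signal, their median change was 0.27, 0.22 and 0.11 in the 3 dimmest groups, -0.28 in group 8 and -0.015 in the brightest. In groups 7 to 10, where all members but PSMB11 lie, both were highest in the brightest group. The medians there were -0.26, -0.28, -0.25 and -0.015 for all genes and -0.30, -0.40, -0.21 and 0.091 for the members. Groups 7 and 8 hold only 2 and 4 members. Of the 45 members only 1, PSMB11, was in the 6 dimmest groups, and 29 were among the 1660 brightest genes, of which 11 genes (0.663%) were called. The median change there was 0.091 for the members and -0.015 for all 1660 genes. Among the brightest 553 of these, which hold 18 members, the medians were 0.14 and 0.25. On LOX-PP replicates 1 to 3 these 18 members stood at 0.49, -0.054 and 0.47 from the control mean, and all 553 genes at 0.65, -0.0064 and 0.51. The high values of the brightest members on replicates 1 and 3 were thus shared by other bright genes, and these are the arrays with the lower signal at the 75th percentile. The part of that signal in the changes was not tested. Over the 45 members, change and mean signal had a Pearson's r of 0.39 and a Spearman's rho of 0.63, as a description over genes that share the same 6 arrays.

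**Figure D4:**
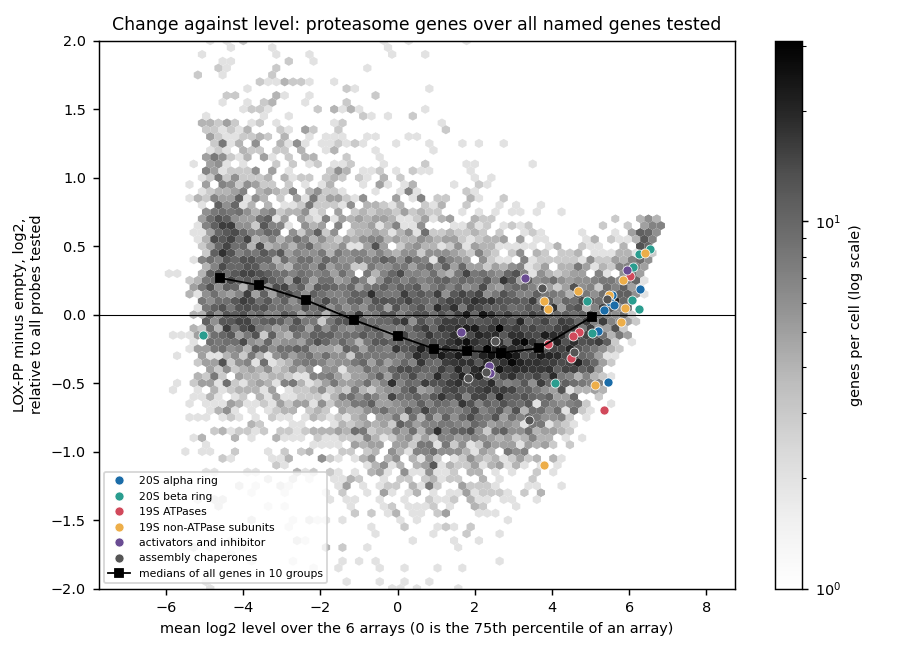
Change (log2, LOX-PP minus empty, relative to all probes tested) against mean log2 level over the 6 arrays for all 16601 named genes tested (grey, darker for more genes on a log scale) and the proteasome genes (coloured by role). Black squares are medians of all genes in 10 groups of equal size, ordered by level, and 579 genes with a change beyond 2 in size are not drawn. The proteasome genes with a level over 6 lie above 0 on this scaling, where other genes of that level also lie, although PSMB1, PSMB5, PSMB6, PSMC1 and PSMD2 among them lie below 0 under quantile normalization, and the lowest is PSMD13.

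The members lie on 17 chromosomes. The 3 members on chromosome 11, PSMD13, PSMC3 and PSMA1, were 3 of the 6 lowest, with changes of -1.10, -0.70 and -0.49. All named genes of chromosome 11 had a median of -0.27. Among up to 10 tested genes on each side, the median was -0.63 around PSMC3, -0.52 around PSMA1 and -0.14 around PSMD13. The neighbours of PSMC3 and PSMA1 were also low, with 17 of 20 below the median of all probes in both cases, and PSMD13 was lower than its own neighbours. Both members on chromosome 16, PSMD7 and PSMB10, were at -0.51 and -0.50, beside a chromosome median of -0.10. The 8 members on chromosome 14 had a median of 0.066 and the 7 on chromosome 17 one of 0.10, where the chromosome medians were -0.085 and 0.084. Over all members, change and the median of the neighbours had an r of 0.29 and a rho of 0.25.

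**Figure D5:**
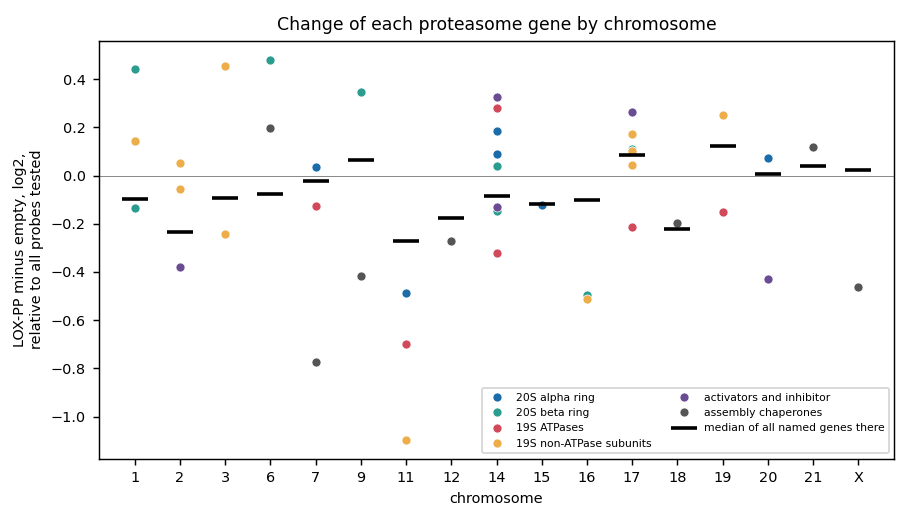
Change (log2, relative to all probes tested) of each tested proteasome gene by chromosome, coloured by role, with the median of all named genes of that chromosome as a black bar. The 3 genes on chromosome 11 lie between -1.10 and -0.49, and the 2 on chromosome 16 lie near -0.50.

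Of 49 genes with a probe that act beside the proteasome, from 6 lists on its other subunits, bound enzymes, ubiquitin, p97, control of its transcription and the COP9 signalosome, 47 were tested and 2 passed by their brightest probe, both lower, beside 7.07% of all genes. POMP, a chaperone that assembles the beta ring and joins core precursors, was at 0.76, 1.46 and 0.95 on the control arrays. It was at -0.54, -0.44 and -0.45 on the LOX-PP arrays, below every control, and fell by 1.66 (95% interval -2.25 to -1.07, adjusted p = 0.0187, limma). POMP lies on chromosome 13, whose 285 named genes had a median change of -0.82, and the part of that shift in its fall was not tested. USP14, which trims ubiquitin chains at the proteasome, was at 0.34, 0.48 and -0.20 on the controls and at -2.39, -1.64 and -1.19 on the LOX-PP arrays. The groups of USP14 lay apart and it fell by 2.07 (95% interval -2.93 to -1.22, adjusted p = 0.0292). POMP and USP14 each had a single probe, with mean levels of 0.29 and -0.77. Neither call held in the methods' t-test, with no filter on dim probes, with a replicate block or without control replicate 1, control replicate 2 or LOX-PP replicate 2, and that of POMP was also lost without LOX-PP replicate 3.

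The other subunits, assembly factors and bound proteins did not pass. In 2 of them all LOX-PP arrays lay below the controls by the brightest probe, beside 18.2% of all genes. RAD23B, a shuttle that carries ubiquitin-tagged substrates, was at 1.96, 2.19 and 1.66 on the controls and at 1.36, 1.20 and 1.24 on the LOX-PP arrays, with a change of -0.79 (adjusted p = 0.149, limma). The dimmer probe of RAD23B did not show this, with a change of 0.093 and overlapping groups. FBXO7, an F-box protein that binds PSMF1, was at 4.48, 4.37 and 4.49 on the controls and at 4.13, 4.16 and 4.22 on the LOX-PP arrays, with a change of -0.41 (adjusted p = 0.454). ADRM1, a ubiquitin receptor, was at 4.21, 4.13 and 4.12 on the controls and 4.21, 4.15 and 4.02 on the LOX-PP arrays, with a change of -0.15 that was 0.057 under quantile normalization. SEM1, the smallest 19S subunit, was at 5.56, 5.80 and 5.80 and then at 6.27, 5.71 and 6.24, a change of 0.22 that was -0.0082 under quantile normalization. UCHL5, the other deubiquitinase bound to the particle besides USP14, was at 3.24, 3.56 and 3.30 and then at 3.19, 3.54 and 3.55, a change of -0.064. The groups of ADRM1, SEM1 and UCHL5 overlapped.

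The regulators of proteasome genes were called in 0 of 9 tested cases. NFE2L1 was at 4.47, 4.64 and 4.67 on the controls and at 4.50, 4.60 and 4.83 on the LOX-PP arrays, with a change of -0.077 (95% interval -0.57 to 0.42) that turned to 0.11 under quantile normalization. DDI2, the protease that releases NFE2L1 from the endoplasmic reticulum, was at -2.19, -2.08 and -2.49 on the controls and at -0.81, -2.32 and -2.62 on the LOX-PP arrays. Its change of 0.21 rested on LOX-PP replicate 1 and was -0.38 without it. NFE2L2 and DDI1 were well above background on 0 arrays and were not tested. Activity of NFE2L1 is set after transcription, which arrays do not measure.

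UBB, which encodes a chain of ubiquitin repeats, resembled the brightest core subunits. It was at 5.85, 5.93 and 6.03 on the controls and at 7.12, 6.08 and 6.79 on the LOX-PP arrays, with a change of 0.60 (adjusted p = 0.229). The median change of 5 ubiquitin and E1 genes was 0.45, and 0.18 under quantile normalization. VCP, the p97 segregase that passes substrates to the proteasome, was at 5.96, 6.14 and 6.15 on the controls and at 7.03, 6.12 and 6.77 on the LOX-PP arrays, with a change of 0.43 that was -0.030 under quantile normalization. In the p97 list UBXN7, a cofactor that bridges p97 and ubiquitin ligases, had a dimmer probe that rose by 1.20 (adjusted p = 0.0247), while its brighter probe, at 0.91, did not pass (adjusted p = 0.115). Of the 9 COP9 signalosome genes, which are related in structure to the 19S lid, 0 passed, with changes from -0.69 to 0.31.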

How the data were processed

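The members, gene lists and tests were chosen with earlier results of these data known. For every spot the authors deposited an intensity, written and corrected for background by Agilent Feature Extraction (version 10.7 in the submitters' processing notes), with flags for outliers and for spots well above background. They also deposited processed log2 values for the same arrays, whose normalization is not given in the sources used here. These are centred on each probe, and after the same centring those of the member probes differed from the values computed here by at most 0.00496.

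From the deposited intensity, the log2 corrected signal of the spots not marked as outliers was averaged for each probe and set relative to the array's 75th percentile. A probe was tested if at least 3 arrays of 6 had it well above background, by limma (version 3.58.1, R 4.3.3) without covariates, with Benjamini-Hochberg adjustment at 0.05, after the steps were tested on simulated data. The brightest tested probe stood for a gene. Names, chromosomes and gene order came from a RefSeq table (28174 of 50599 probes named), whose build is later than that of the array design. Array values were given for members past the threshold, for those with the largest and smallest t of each role, for catalytic and receptor subunits and for set pathway genes. The number of arrays limits the precision. Alternatives were quantile normalization, scaling on the median, the authors' values, normexp (offset 50) on the median spot signal, other filters, slide or replicate number as a block, the methods' t-test, the mean of probes, and leaving out each array. The gene set table of the study was not used here, and 1 gene that the rule names is not reported here.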

Additional observations from a re-analysis of the deposited data

How the results depend on the processing

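The count of 0 member genes past the threshold was the same under every alternative run except the mean of all tested probes of a gene, which gave 2. The median change of the members was -0.017 under quantile normalization, -0.043 with normexp and -0.14 with no filter. It ran from -0.071 to 0.15 when 1 array was left out. The members whose groups did not overlap were 7, beside 33.6% of all genes. They numbered 12 under quantile normalization, beside 34.1% of all genes, and 11 with normexp, beside 33.8%. With 1 array left out they numbered from 8 to 28 (from 37.0% to 47.6% of all genes), the most without LOX-PP replicate 2 (43.1%). The 1849 probes past the threshold became 516 with no filter and 566 in the methods' t-test, and from 407 (without control replicate 1) to 2062 with 1 array left out. The 2 pathway genes became 0 with no filter and in the methods' t-test, and from 0 to 2 with 1 array left out. With a replicate block 860 probes, 0 members and 0 pathway genes passed. Arrays of the same number correlated in their deviations by 0.27, -0.39 and 0.23. With 3 arrays per group these values cannot settle whether the numbers pair them. The median difference of all probes was -0.034 under quantile normalization, compared with 0.13. Changes near 0 turned sign. Under quantile normalization ADRM1 was at 0.057, NFE2L1 0.11, UCHL5 0.21, PSMB1 -0.040, PSMB5 -0.34, PSMB6 -0.23, PSMC1 -0.014, PSMD14 -0.17, PSMD2 -0.017, SEM1 -0.0082 and VCP -0.030. With normexp ADRM1 was at 0.034, NFE2L1 0.098, UCHL5 0.24, PSMA5 -0.013, PSMB1 -0.040, PSMB5 -0.35, PSMB6 -0.19, PSMB7 -0.070, PSMC1 -0.043, PSMD14 -0.19, SEM1 -0.0013 and VCP -0.077. With no filter PSMA5 was at -0.033, PSMB5 -0.14, PSMB6 -0.067, PSMD14 -0.13 and PSMD4 -0.033. With the mean of probes NFE2L1 was at 0.0030, PSMD14 -0.18, SEM1 -0.020 and UCHL5 0.11. With the slide as a block DDI2 was at -0.11, PSMB5 -0.012 and PSMD14 -0.0098. Without LOX-PP replicate 1, that is within slide 1, DDI2 was at -0.38 (0.56 without LOX-PP replicate 3), PSMB5 -0.049, PSMB6 -0.024, PSMD14 -0.053, PSMD4 -0.099 and UCHL5 0.019. NFE2L1 was at 0.023 without LOX-PP replicate 2, PSMB5 at -0.072 without LOX-PP replicate 3, PSMD14 at -0.044 without control replicate 1, and NFE2L1 at 0.0071 and UCHL5 at 0.097 without control replicate 2. The highest values of PSMB5, PSMB6 and PSMD4, 0.29, 0.37 and 0.45, were found without LOX-PP replicate 2, and the lowest of UCHL5, -0.16, without control replicate 3. With no filter the differences of the members were unchanged, and only the subtracted median of all probes was higher. The cause of the other turns was not tested. The call of the dimmer PSME4 probe was lost with no filter, with a replicate block, in the methods' t-test and without control replicate 1 or 2 or LOX-PP replicate 2 or 3. PSMB11 lies near background, so its change is uncertain.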
